A study of Mus musculus with 2 samples.

Results

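Peaks crowded with footprints are the accessible sites that hold 8 or more whole footprints called in the same library. They numbered 1840 of 93641 peaks in replicate 1 (1.96%) and 1238 of 66196 in replicate 2 (1.87%). Members were chosen by their footprint count, so that count, and the footprint spacing and density that follow from it, are given as a description. The data are DNase-seq of frontal cortex from female B6CASTF1/J mice aged 14 days, first-generation offspring of C57BL/6J and CAST/EiJ parents. The labels give 1 group of 2 libraries, biological replicates 1 and 2, each with its own biosample label but one donor label between them, and no treatment or genetic change. A label mark 3x, whose meaning is not stated, leaves it unknown whether tissue of several animals was pooled. With 1 group there is no comparison between conditions and no p-value, and the spread between the libraries may be partly technical.

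DNase I cuts DNA that is free of nucleosomes, and dense cutting marks promoters, enhancers and insulators. A protein bound inside such a site shields a few bases, and the dip in cutting is called a footprint. Promoters rich in CpG dinucleotides are bound by general factors such as SP/KLF, ETS and EGR family proteins, while enhancers of cortical neurons are bound by basic helix-loop-helix, MEF2 and AP-1 proteins. Footprints are calls from cutting patterns, and the data do not name the protein at any of them.

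The sequences of 5 crowded peaks that were crowded in both libraries, and of 1 peak of like width and signal with few footprints, show what crowding looks like at the level of bases. All are the reference (C57BL/6J) sequence of build GRCm38 from RefSeq, plus strand, with the footprints of the named replicate in capitals. Each is the stretch of up to 300 bases with the most whole replicate 1 footprints outside exons of protein-coding transcripts, and bases that CAST/EiJ carries differently are not shown. The first is chr11:23771018-23771317, upstream of Rel, which encodes an NF-kB subunit. Replicate 1 had 8 footprints over 35.0% of these bases and replicate 2 had 7 over 20%.

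Rel, footprints of replicate 1: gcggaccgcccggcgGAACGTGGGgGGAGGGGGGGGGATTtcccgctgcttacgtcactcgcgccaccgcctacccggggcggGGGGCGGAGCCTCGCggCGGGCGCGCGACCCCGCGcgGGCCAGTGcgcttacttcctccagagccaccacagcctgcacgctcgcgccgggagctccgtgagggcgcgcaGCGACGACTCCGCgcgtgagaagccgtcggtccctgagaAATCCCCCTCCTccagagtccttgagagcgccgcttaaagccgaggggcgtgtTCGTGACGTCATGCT

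Rel, footprints of replicate 2: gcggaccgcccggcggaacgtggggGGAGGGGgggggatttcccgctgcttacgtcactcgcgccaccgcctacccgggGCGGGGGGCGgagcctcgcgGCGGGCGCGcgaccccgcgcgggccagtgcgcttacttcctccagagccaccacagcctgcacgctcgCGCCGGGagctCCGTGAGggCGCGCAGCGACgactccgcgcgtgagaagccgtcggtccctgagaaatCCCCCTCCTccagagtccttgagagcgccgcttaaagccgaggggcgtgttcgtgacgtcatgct

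Several capital stretches fell on the same bases in both libraries, while their ends differed and others were called in 1 library only. A GGGCGGG stretch (the SP/KLF GC box, both strands searched) touched a footprint in both libraries. A TGACGTCA stretch (CREB/ATF) touched one in replicate 1 alone. Among all peaks of 300 to 600 bp, GGGCGGG was present in 30.0% in replicate 1 and 36.3% in replicate 2, and TGACGTCA in 1.35% and 2.12%. The same layout was seen at chr12:85455144-85455443, 18.5 kb upstream of Fos, the activity-induced AP-1 gene. This stretch lies inside a VISTA enhancer entry of the RefSeq annotation at chr12:85454400-85456289, and part of it is an exon of a predicted long noncoding RNA there. It held 9 footprints of replicate 1 and 5 of replicate 2.

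Fos distal site, footprints of replicate 1: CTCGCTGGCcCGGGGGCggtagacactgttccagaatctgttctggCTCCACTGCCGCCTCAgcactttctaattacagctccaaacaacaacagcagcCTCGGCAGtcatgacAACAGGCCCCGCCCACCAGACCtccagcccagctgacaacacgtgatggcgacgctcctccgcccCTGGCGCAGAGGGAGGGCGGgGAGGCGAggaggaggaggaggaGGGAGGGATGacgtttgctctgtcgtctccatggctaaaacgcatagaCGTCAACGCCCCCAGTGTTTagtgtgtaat

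Fos distal site, footprints of replicate 2: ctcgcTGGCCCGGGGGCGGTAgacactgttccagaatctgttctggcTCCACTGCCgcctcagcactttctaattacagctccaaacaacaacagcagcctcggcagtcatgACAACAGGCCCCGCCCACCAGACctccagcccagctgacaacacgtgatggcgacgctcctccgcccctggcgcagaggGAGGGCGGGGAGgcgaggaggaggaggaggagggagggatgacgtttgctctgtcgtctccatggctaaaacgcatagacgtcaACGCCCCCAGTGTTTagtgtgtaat

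Both GGGCGGG stretches of the Fos site touched footprints in both libraries. A CACGTG stretch (USF/MYC E-box, present in 9.91% and 10.4% of all peaks of 300 to 600 bp) and a TAATTA stretch (homeobox, 3.83% and 3.4%) touched none in either. The next stretches show a strong promoter, an intronic site and a site with a repeated sequence. Csnk1g2, which encodes a casein kinase, is at chr10:80622142-80622441, with 7 and 8 footprints in replicates 1 and 2. Maml3, which encodes a Notch coactivator, has its intronic site at chr3:52102373-52102672, with 8 and 5. The site near Gm15247, in an intron of a gene annotated there, is at chrX:169991176-169991475, with 10 and 8 footprints over 56.0% and 47.0% of the bases.

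Csnk1g2, footprints of replicate 1: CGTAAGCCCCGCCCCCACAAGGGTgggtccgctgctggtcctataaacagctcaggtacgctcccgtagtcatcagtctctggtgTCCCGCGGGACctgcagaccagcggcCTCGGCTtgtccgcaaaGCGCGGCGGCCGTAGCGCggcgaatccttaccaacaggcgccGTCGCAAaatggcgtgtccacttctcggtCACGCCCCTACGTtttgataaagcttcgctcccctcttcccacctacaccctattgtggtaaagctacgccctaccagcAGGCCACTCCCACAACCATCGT

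Maml3, footprints of replicate 1: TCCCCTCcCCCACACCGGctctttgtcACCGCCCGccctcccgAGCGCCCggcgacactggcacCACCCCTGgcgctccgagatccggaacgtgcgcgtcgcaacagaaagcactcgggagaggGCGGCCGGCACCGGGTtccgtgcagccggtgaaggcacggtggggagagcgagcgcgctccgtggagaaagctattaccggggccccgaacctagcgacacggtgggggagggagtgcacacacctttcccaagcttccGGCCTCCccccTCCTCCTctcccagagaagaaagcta

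Gm15247, footprints of replicate 1: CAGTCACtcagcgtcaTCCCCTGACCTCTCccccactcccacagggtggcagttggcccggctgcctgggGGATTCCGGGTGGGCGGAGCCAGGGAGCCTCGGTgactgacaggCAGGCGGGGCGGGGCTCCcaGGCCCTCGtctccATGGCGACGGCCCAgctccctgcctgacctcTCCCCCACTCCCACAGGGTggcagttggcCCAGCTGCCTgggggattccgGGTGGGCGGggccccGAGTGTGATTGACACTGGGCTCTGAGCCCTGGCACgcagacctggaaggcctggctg

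Within the Gm15247 stretch a run of 40 bases occurs more than once, against 10 bases at Rel, 9 at Csnk1g2, 10 at Maml3 and 16 at the Fos site. How reads were placed on repeated bases is not given in the sources used. For contrast, the distal peak of 1 to 3 footprints nearest to the Maml3 peak in signal at like width lies near Git1, at chr11:77491558-77491857. It had 2 footprints in replicate 1 over 6% of these bases and 0 of replicate 2, and its peak signal was 1.41 against 1.36 at Maml3.

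Git1 comparison site, footprints of replicate 1: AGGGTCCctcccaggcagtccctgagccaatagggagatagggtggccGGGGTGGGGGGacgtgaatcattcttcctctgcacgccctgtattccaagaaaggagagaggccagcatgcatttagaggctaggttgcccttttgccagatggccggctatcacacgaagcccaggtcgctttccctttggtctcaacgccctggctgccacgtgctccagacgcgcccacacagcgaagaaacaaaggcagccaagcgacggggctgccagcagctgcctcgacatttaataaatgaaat

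From 1 to 16 footprints the number of peaks fell at each step in both libraries, so the threshold sits on a falling curve. In replicate 1, 1385 peaks held exactly 7 footprints and 792 exactly 8, and in replicate 2 the numbers were 1007 and 524. Peaks with 7 had a median width of 340 bp and a median signal of 2.25 in replicate 1, and peaks with 8 had 400 bp and 2.25. In replicate 2 the values were 360 bp and 2.20 at 7, and 400 bp and 2.35 at 8. Members held a median of 9 footprints in each library against 2 for all peaks, 212 and 124 members held 12 or more, and the most was 20 in each. Together they carried 7.20% of all replicate 1 footprints and 7.37% of replicate 2 footprints.

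**Figure D1:**
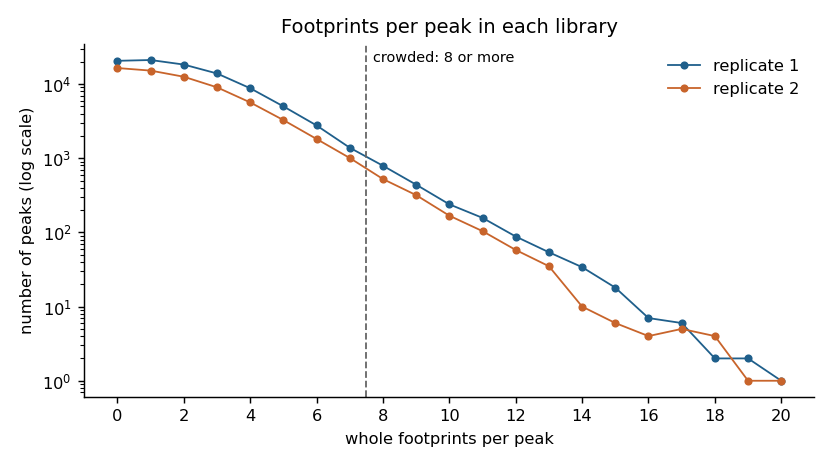
Number of peaks (y axis, log scale) by the number of whole footprints they hold (x axis), for replicate 1 and replicate 2. The dashed line marks the threshold of 8, and both curves fall from 1385 and 1007 peaks at 7 to 792 and 524 at 8.

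Crowded peaks were wide and stronger than most peaks. Their median width was 460 bp in replicate 1 and 444 bp in replicate 2, against 194 and 196 bp for peaks with 1 to 3 footprints. The deposited signal (column 7, of unstated scale) had a median of 1.97 and 2.29, against 0.656 and 0.746. The lower quartile of the members' signal was 1.23 and 1.52, and the upper quartile of all peaks was 1.23 and 1.29. The highest member signal was 11.5 in replicate 1 and 7.66 in replicate 2, while peaks with 1 to 3 footprints reached 63.9 and 60.1. Within the members, width and signal ran opposite ways (Spearman rho -0.62 over 1840 peaks and -0.51 over 1238, across peaks of 1 library that share its depth). The footprint count rose with width (rho 0.45 in both) and not with signal (-0.11 and -0.02). Over all peaks the count rose with both, at rho 0.55 and 0.59 for width and 0.68 and 0.72 for signal. Members were chosen by this count, so the rho values within members may follow in part from the rule.

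**Figure D2:**
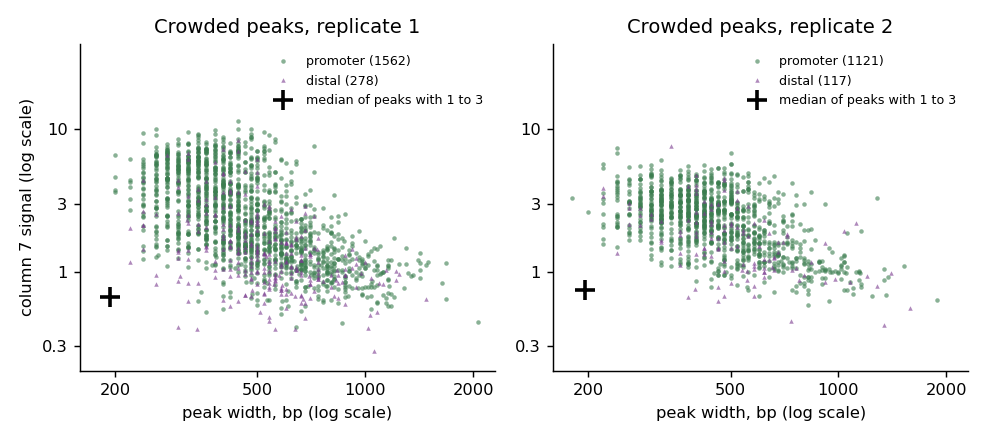
Signal (y axis, log scale) against width in bp (x axis, log scale) of each crowded peak, in replicate 1 (left) and replicate 2 (right), with promoter and distal members marked and the median of peaks with 1 to 3 footprints as a cross. Members lie to the right of the cross, except a replicate 2 member of 180 bp, and the widest ones have signals near or below 1.

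The extremes of width were different kinds of site. The narrowest replicate 1 members were 200 bp wide, and one of several at that width was the promoter peak of Lzic (chr4:149485121-149485320, signal 3.6) with 8 footprints. The replicate 2 peak there held 3. The narrowest of replicate 2 was a 180 bp peak in a coding exon of Sars2, the mitochondrial seryl-tRNA synthetase gene (chr7:28742121-28742300, signal 3.28), with 8, and the replicate 1 peak there held 5. The widest of replicate 1 covered 2060 bp at Ttyh1, which encodes a membrane protein of neural cells (chr7:4127901-4129960), with 16 footprints at a signal of 0.442, and no replicate 2 peak or footprint. The widest of replicate 2 was 1880 bp at Adcy8, an adenylyl cyclase gene (chr15:64920921-64922800), with 10 footprints at a signal of 0.626. That interval held 19 replicate 1 footprints. The densest members, named after their values were seen, were Pomp in replicate 1, with 9 footprints in 220 bp, and Sars2 in replicate 2.

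Some crowded peaks overlapped another peak of their own library, since the deposited lists are not merged. This held for 525 members (28.5%) in replicate 1 and 307 (24.8%) in replicate 2, against 4.28% and 3.86% of all peaks. Merged, the members lay at 1797 and 1220 separate places. Without peaks of this kind the median width was 400 bp in both libraries and the median signal 2.47 and 2.52.

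Most crowded peaks were promoters, and so were most peaks of like width and signal. A peak was called promoter when it overlapped the 500 bp on either side of a transcription start site (TSS) of GENCODE M21. The share was 84.9% in replicate 1 (95% Wilson interval 83.2 to 86.5) and 90.5% in replicate 2 (88.8 to 92.1), against 29.6% and 35.3% of all peaks. Each member was then set beside all peaks of its library with 1 to 3 footprints that differed by at most 20 bp in width and 0.25 in log2 signal, called matched peaks here. Such a peak existed for 1443 members (78.4%) and 988 (79.8%). Of these members 83.0% and 90.2% were promoters, and of the matched peaks 80.6% and 87.8%. The difference was 2.41 ± 0.026 percentage points (SD, n = 2 libraries). It was -0.69 when 10 or more footprints were required, 2.6 in replicate 1 and -3.97 in replicate 2, and 0.227 when GC content was matched too, -0.68 in replicate 1 and 1.13 in replicate 2. Some wide or strong members had few matched peaks, and weighted by use the matched peaks counted as 254 and 121 independent ones, so a difference of this size was not detectable with this number of peaks. The 397 and 250 members without a matched peak were stronger, with median signals of 3.85 and 3.22, and 91.9% and 92.0% of them were promoters.

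Around the TSS the footprints of crowded promoters spread over the whole peak. In the 50 bases upstream of the TSS, crowded promoter peaks had 2.36 footprints per 100 bases in replicate 1 (1407 peaks) and 2.49 in replicate 2 (1042 peaks). Promoter peaks with 1 to 3 footprints that matched a member, pooled without weighting by member (4831 and 3280 peaks), had 1.27 and 1.34. Within 600 bases of the TSS this pool covered fewer bases per peak than members did, so its width was not like theirs. From 450 to 400 bases upstream the values were 1.65 and 1.66 in crowded peaks against 0.748 and 0.729. Neighbouring footprints of a member had centres a median of 40 and 38.5 bp apart. In a pool of matched peaks with 2 or 3, also unweighted, the medians were 63.0 and 64.0 bp. These values follow in part from the rule and carry no test.

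**Figure D3:**
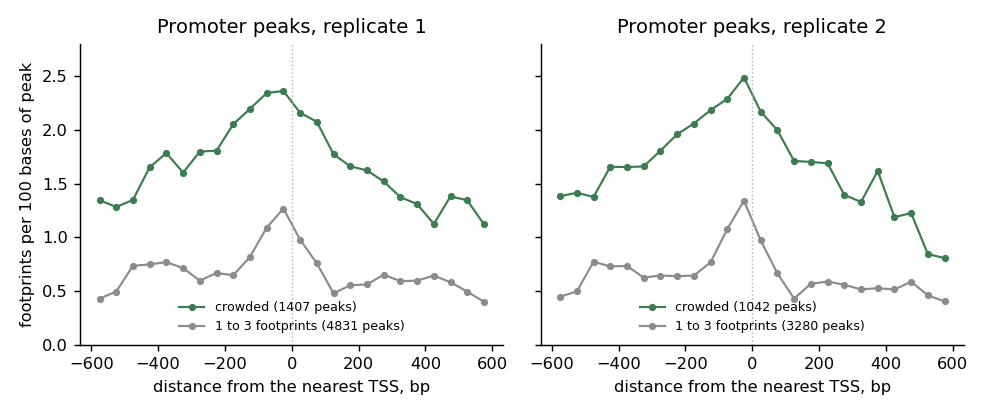
Footprints per 100 bases of peak (y axis) by distance from the nearest TSS in bp (x axis, negative upstream). Shown are crowded promoter peaks and the unweighted pool of promoter peaks with 1 to 3 footprints that matched a member. Both profiles are highest just upstream of the TSS, and the crowded profile remains above the other in each bin.

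The other library offers a readout that the rule did not use. Crowded peaks held more footprints of the other library than matched peaks did. Replicate 1 members with a matched peak held a mean of 5.06 replicate 2 footprints, and their matched peaks 3.04. Replicate 2 members held 7.51 replicate 1 footprints, and their matched peaks 4.90. The difference was 2.31 ± 0.422 footprints (SD, n = 2 libraries), in the same direction in both, and from 1.49 to 3.28 under the other thresholds, lists, matchings and overlaps tried. No footprint of the other library lay in 5.41% of these replicate 1 members against 16.7% of matched peaks, and in 0.506% of replicate 2 members against 2.89%. The counts of all members had medians of 6 in replicate 1 and 8 in replicate 2.

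**Figure D4:**
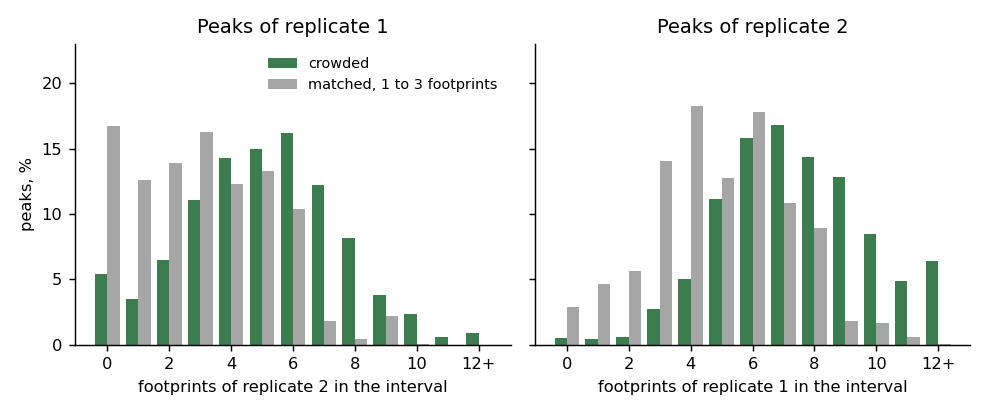
Share of peaks (y axis, %) by the number of footprints of the other library in the same interval (x axis, 12+ pools 12 or more), for crowded peaks that have a matched peak and for the matched peaks, in replicate 1 (left) and replicate 2 (right). Crowded peaks lie to the right, with 5.41% against 16.7% at 0 in replicate 1.

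Sharing of the peak itself was near complete in both kinds. At 1 bp overlap, 96.1% of replicate 1 members (95.2 to 96.9) and 99.8% of replicate 2 members (99.41 to 99.96) met a peak of the other library, against 59.1% and 84.4% of all peaks. With matching, the shares were 95.4% against 91.7% in replicate 1 and 99.8% against 98.2% in replicate 2. Crowding itself was shared less often than the peak. It was judged from the other library's peak with the longest overlap, so a crowded peak with a shorter overlap was not counted. A crowded peak of the other library was met by 410 replicate 1 members (22.3%, 20.4 to 24.2) and 404 replicate 2 members (32.6%, 30.1 to 35.3). Among members with a matched peak the shares were 16.2% and 30.3%, and among matched peaks 5.22% and 10.4%. The crowded pairs lay at 398 separate places, near 395 genes, and 29 replicate 1 peaks among them were distal.

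Some intervals held 8 or more footprints of each library without meeting a crowded peak by this measure. Members that met none by it are called crowded in 1 library alone. Of members crowded in 1 library alone, 168 of 1430 in replicate 1 (11.7%) and 284 of 834 in replicate 2 (34.1%) held 8 or more footprints of the other library in the same interval. Of all peaks 0.954% and 2.57% did. Among members with a matched peak, crowded in 1 library or both, the shares were 15.9% and 47.0%, and among matched peaks 2.75% and 13.1%. An interval of this kind is the replicate 2 peak near B430305J03Rik (chr3:61363581-61364700, signal 2.18, in a coding exon). It held 20 footprints, and 20 replicate 1 footprints lay in the same interval, but the replicate 1 peak with the longest overlap was 260 bp wide with 5. At Cactin, which encodes a splicing factor (chr10:81320561-81321220), the values were 18, 11 and 5. Rel was among the other replicate 2 peaks with 18. The replicate 2 peak at Wdr78, a dynein subunit gene (chr4:103114261-103114960), held 19 and did meet a crowded replicate 1 peak, of 9 footprints in 360 bp.

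Footprints did not overlap a footprint of the other library more often in crowded peaks, with 1 bp counted as overlap. In replicate 1, a mean of 39.3% of a member's footprints overlapped a replicate 2 footprint, against 40.5% in matched peaks. In replicate 2 the shares were 62.4% and 65.9%. Mean footprint width was 11.2 against 12.8 bp in replicate 1 and 11.5 against 15 bp in replicate 2, so members held more and narrower footprints.

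Strong members were narrower and more often promoters than weak ones in both libraries. In the weakest 20% of replicate 1 members by signal, 66.8% were promoters, 86.7% met a replicate 2 peak, 5.43% were crowded in both and 16.8% held no replicate 2 footprint. In the strongest 20% the values were 96.7%, 99.7%, 42.1% and 0.00%. Median width was 680 bp in the weakest 20% and 360 bp in the strongest. In replicate 2 it was 660 and 380 bp, and the promoter share 82.3% and 95.2%. The fall of width with signal may follow in part from the rule that chose the members. The replicate 2 share crowded in both was 34.3% in the weakest 20% and 37.9% in the strongest, with 29.6% to 31.6% between. Replicate 1 had more footprints in all (234094 against 154015), the total reads are unknown, and the part of depth in these shares was not tested.

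The 10 peaks most crowded in both libraries were all promoters. Rel led, with the same 800 bp interval called in both (chr11:23770681-23771480), 18 footprints in each, and signals of 2.43 and 1.97. Of its replicate 1 footprints 72.2% overlapped one of replicate 2. Jade2, which encodes a subunit of a histone acetyltransferase complex (chr11:51855541-51856960), had 15 in each, but only 33.3% overlapped. Trib1, a pseudokinase gene (chr15:59647961-59648800), had 14 in replicate 1 and 17 in replicate 2. Lrba, a vesicle trafficking gene (chr3:86223641-86224340), had 15 and 14.

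The 2 strongest of these 10 had the largest shares of replicate 1 footprints overlapped by one of replicate 2. Abtb1, a BTB domain gene (chr6:88842021-88842540, signals 7.68 and 4.54), had 12 and 15, and 91.7% of its replicate 1 footprints overlapped one of replicate 2. Csnk1g2 (chr10:80621981-80622700, signals 7.64 and 4.21) had 12 and 17, with 83.3% overlapped. Stx5a, which encodes a Golgi SNARE (chr19:8741241-8741820, signals 4.52 and 3.13), had 13 and 13, with 69.2%. At the weak end, Irf2, an interferon regulatory factor gene (chr8:46740321-46741740, signals 1.15 and 0.918), had 20 and 12, with 20%. Tmem229a, a transmembrane protein gene (chr6:24955661-24956560), had 16 and 13 with 31.2%, and Sh2b3, a cytokine signalling adaptor gene (chr5:121836521-121837320), 13 and 13 with 53.8%.

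The next replicate 1 peaks by count had 19 footprints each and fewer in common. Mdga2, which regulates synaptic adhesion (chr12:67221621-67222920, signal 1.46), met a replicate 2 peak of 10, and Pgr, the progesterone receptor gene (chr9:8900941-8902260, signal 0.971), one of 5. Only 15.8% and 10.5% of their replicate 1 footprints overlapped one of replicate 2.

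**Figure D5:**
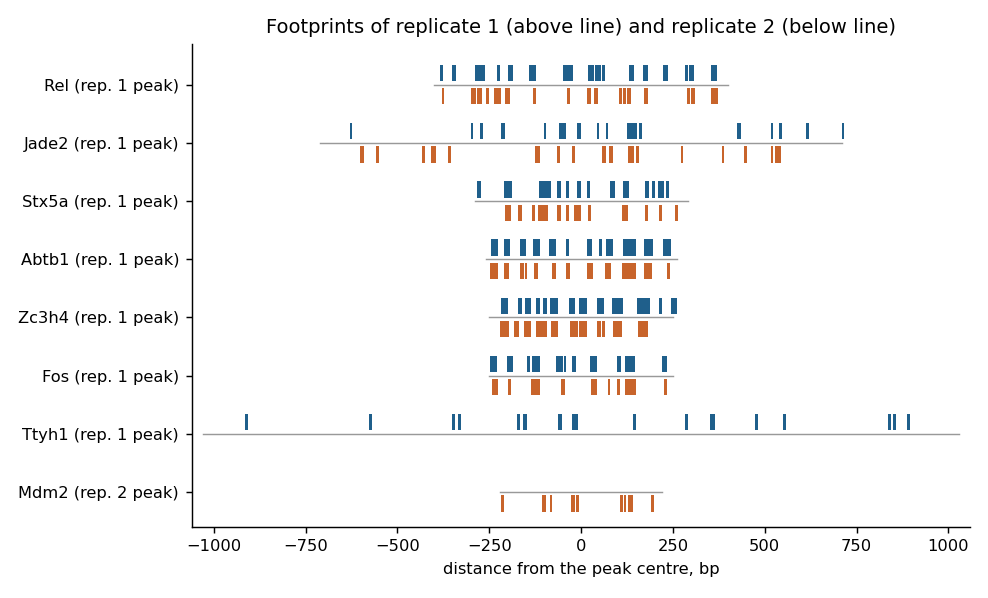
Footprints of replicate 1 (above each line) and replicate 2 (below) by distance in bp from the centre of 8 crowded peaks, with the line as the extent of the peak in the library named at left. The footprints line up at Abtb1 and Zc3h4, line up less at Jade2, and are present in 1 library alone at Ttyh1 and Mdm2.

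Distal crowded peaks were fewer and weaker than promoter ones. There were 278 in replicate 1 and 117 in replicate 2, with median signals of 1.22 and 1.61 and median GC contents of 58.4% and 58.9%. Many lay just outside the promoter window, with 37.1% and 41.9% under 2000 bp from a TSS and 31.3% and 31.6% at 10000 bp or more. By midpoint 42.8% and 37.6% were intronic, 37.8% and 48.7% intergenic and 13.7% and 5.13% in coding exons. These shares of distance and location are given without those of other distal peaks, so they describe the members alone. Matched within distal peaks, 201 and 67 of them held 3.79 and 6.16 footprints of the other library, against 2.5 and 4.25 in matched peaks. Their share crowded in both was 5.97% against 5.27% in replicate 1 and 17.9% against 8.80% in replicate 2.

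The distal site most crowded in both lay 819 bp from the nearest GENCODE start of Zc3h4, a transcription termination gene (chr7:16399841-16400340). It held 12 and 13 footprints at signals of 6.19 and 4.40, with 91.7% overlapped, and RefSeq has predicted Zc3h4 transcripts whose first exon covers it. The Fos site (chr12:85455141-85455640) held 12 and 10 at signals of 5.0 and 3.66, with 83.3% overlapped. The Maml3 site (chr3:52102321-52102920, signals 1.36 and 0.935) held 11 and 13 with 27.3%, and the Gm15247 site (chrX:169991141-169991540, signals 3.64 and 4.04) 12 and 10 with 75%. A site in an intron of Ctif, a translation factor gene, held 11 and 10 at signals of 2.58 and 1.32.

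Crowded peaks without any footprint of the other library numbered 84 in replicate 1 (4.57%) and 5 in replicate 2 (0.404%), against 51.6% and 27.6% of all peaks. The 5 of replicate 1 with the most footprints had no replicate 2 peak at all. They were Ttyh1 with 16, and with 12 each the promoters of Mir124a-1hg, host of the neuronal miR-124 (chr14:64587301-64588020, signal 1.49), and Pwwp2b (chr7:139247661-139248820, signal 1.11), a site at Cyb561d1 (chr3:108195921-108196660, signal 0.971), and a coding exon of Tbr1, the deep-layer neuron factor (chr2:61810961-61812440, signal 0.643). The 5 of replicate 2 each met a replicate 1 peak. The Mdm2 promoter, of the p53 ubiquitin ligase gene (chr10:117709921-117710360), held 9 in replicate 2 at a signal of 1.18 and 0 in replicate 1 at 1.04. The others were 9330188P03Rik and Gm49291 with 9 each, and Gm24970 and Fryl with 8 each.

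Crowded peaks were richer in GC than matched peaks. GC content was 65.6% against 63.4% in replicate 1 and 64.4% against 61.4% in replicate 2, a difference of 2.61 ± 0.582 percentage points (SD, n = 2 libraries). The observed to expected CpG ratio was 0.777 against 0.736 and 0.816 against 0.738. Matching on GC content too left the difference in footprints of the other library at 2.03 in replicate 1 and 2.43 in replicate 2. Promoters shared by a pair of divergent genes went opposite ways, at 6.93% against 12.8% in replicate 1 and 12.2% against 10.2% in replicate 2.

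Of 19 consensus sequences searched on both strands, the SP/KLF GC box and the EGR box were those most raised in members over matched peaks in both libraries, in percentage points. GGGCGGG occurred in 59.0% of members against 49.4% of matched peaks in replicate 1 and 61.8% against 49.8% in replicate 2. GCGNGGGCG, the EGR box, occurred in 21.4% against 14.0% and 18.7% against 11.7%, and in 9.22% and 10.2% of all peaks of 300 to 600 bp. Both sequences are GC-rich, and the part of GC content in these shares was not tested. Per footprint, widened by 5 bp on each side, GGGCGGG was less frequent in members, at 7.54% of footprints against 10.6% in replicate 1 and 8.65% against 10.7% in replicate 2. The EGR box was not, at 1.75% against 1.71% and 1.65% against 1.32%. Member footprints were narrower, so fewer bases were searched in each, and the part of this was not tested.

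Longer consensus sequences were rare in member footprints. That of CTCF, the insulator protein, lay in 0.0578% of replicate 1 member footprints against 0.263% in matched peaks, and in 0.0745% against 0.746% in replicate 2. Members hold more and narrower footprints, and per peak CTCF went opposite ways, at 0.832% against 0.709% in replicate 1 and 0.81% against 2.0% in replicate 2. That of NFI, a factor family of glia and cortical progenitors, lay in 0.0219% against 0.208% and 0.0127% against 0.296%. Weighted by use, the matched peaks counted as 254 and 121 independent ones. Sequences this rare lie in few of them, so the CTCF and NFI differences are not read as a result. CCGGAAG (ETS) occurred in 15.5% of members against 18.4% of matched peaks in replicate 1 and 22.1% against 23.1% in replicate 2, and in 8.23% and 11.8% of all peaks of 300 to 600 bp. GCGCATGCG (NRF1) went opposite ways, at 2.84% against 3.04% and 6.07% against 1.43%, with 1.29% and 2.23% in those peaks. In distal members with a matched peak (201 and 67) CAGATGG, the neurogenic E-box, occurred in 17.9% against 16.3% and 17.9% against 15.5%. All peaks of 300 to 600 bp held it in 9.90% and 8.78%. In the same distal members GGGCGGG was also higher in both libraries, at 27.4% against 19.7% and 37.3% against 25.5%. TAATTA was too, at 5.97% against 3.53% and 5.97% against 1.80%, as were the EGR, NRF1 and NFY (AGCCAAT) sequences. Some others went opposite ways or were lower. The AP-1 sequence stood at 13.4% against 14.8% and 10.4% against 7.77%, and that of MEF2 at 3.98% against 2.95% and 1.49% against 5.57%. CACGTG stood at 14.4% against 19.7% and 8.96% against 23.9%. These letters say nothing of which protein was bound.

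By gene, 1582 of 21911 protein-coding genes had a crowded promoter peak in replicate 1 (7.22%), 1235 in replicate 2 (5.64%) and 435 in both (1.99%). The lists that follow are small, share genes of broadly active promoters and were written with earlier results known, so their counts are read only beside these shares. Every gene of the heat shock, signalling, splicing, ribosomal, immediate early and pan-neuronal lists had a promoter peak in both libraries. Of all protein-coding genes 12896 of 21911 did, and the part of this in the counts was not tested. Among 20 heat shock and chaperone genes 6 were crowded in replicate 1, 6 in replicate 2 and 2 in both. Hsp90b1, the endoplasmic reticulum chaperone gene (chr10:86705481-86705860 in replicate 1), held 9 and 12 at signals of 8.47 and 3.6. Hspa9, a mitochondrial chaperone gene, held 9 and 11. Dnajb1, a cofactor of Hsp70 (chr8:83607961-83608260 in replicate 1), held 7 and 11.

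Among 30 genes of signalling feedback 9 were crowded in replicate 1, 5 in replicate 2 and 2 in both. Spred1, an inhibitor of Ras signalling (chr2:117120401-117121080 in replicate 1), held 14 and 9 at signals of 2.89 and 2.41. The clock gene Per1 held 8 and 9, but at different promoter peaks, and Per2 held 9 and 7. Of 22 splicing and RNA-binding factor genes 3 were crowded in replicate 1, 6 in replicate 2 and 0 in both. Srsf2 held 7 and 8 and Tra2b 8 and 7, next to the threshold on either side. Hnrnpd held 8 and 7, at promoter peaks that do not overlap. Of 24 cytosolic ribosomal protein genes 2, 3 and 0 were crowded, with Rpl13a and Rps18 at 7 and 8 each and Rpl27 at 8 and 6. Of 24 chromatin regulator genes 6, 1 and 0 were crowded, with Hdac2 at 9 and 6, Kmt2a at 5 and 8 and Chd7 at 8 and 5.

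Of 20 immediate early genes, which neurons induce on activity, 5 were crowded in replicate 1, 1 in replicate 2 and 0 in both. Fosl2 (chr5:32135341-32135960 in replicate 1) held 12 and 7, Junb 9 and 7, and Jund 7 and 8. Of 25 forebrain transcription factor genes 3, 1 and 0 were crowded, with Tbr1 at 10 and 6, Sox11 at 6 and 9 and Cux1 at 8 and 5. Of 20 pan-neuronal genes 2, 0 and 0 were crowded, the neurofilament gene Nefl at 12 and 6 and the enolase gene Eno2 at 9 and 3. In the list of other SOX, FOX, POU and homeobox genes 3, 2 and 1 of 20 were crowded, and Pou2f1, the octamer-binding factor gene (chr1:166002701-166003100 in replicate 1), held 8 and 12. Tshz1 held 7 and 9 and Foxo1 8 and 6.

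Lists of single cell types are short, and a count of 0 in one is not told apart from the shares over all genes. Of 14 astrocyte genes only Id4, an inhibitor of basic helix-loop-helix factors, was crowded, with 9 in each library but at different peaks. These were chr13:48260761-48261120 in replicate 1 and chr13:48261561-48262380 in replicate 2. The replicate 2 peak is the one named above by Gm49291, and its interval held 0 replicate 1 footprints. None of 18 inhibitory neuron, 15 oligodendrocyte, 15 microglia or 16 endothelial and mural genes was crowded in either library, and none of 20 markers of other tissues was. Of these genes 11, 6, 3, 4 and 1 had a promoter peak in both libraries, where 12896 of 21911 protein-coding genes had one. Fewer cells of a type and less access per cell cannot be told apart in tissue of mixed cells.

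Several genes had more than 1 crowded promoter peak. Ppp2r3d, a phosphatase regulator gene, had 3 in replicate 1 and 2 in replicate 2. Chst15, a sulfotransferase gene, had 4 and 0, and Pcdh7, a protocadherin gene, 3 and 1. Csf2ra, a cytokine receptor gene, and Mon1b, an endosome gene, had 2 and 2, as did Rel and Slc22a23. The members were spread over the chromosomes, at 1.60% to 2.41% of the peaks of each autosome in replicate 1 and 1.30% to 2.65% in replicate 2, with 1.71% and 1.48% on chromosome X.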

How the data were processed

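DNase-seq of 2 libraries of 1 group was taken from the authors' deposited tables. Peaks, footprints and FDR cut rates derive from each library's own alignments to mm10, per the deposited notes, so the replicates were not pooled. The sources used here do not name the aligner, the callers or any filter. The deposited signal (column 7) ranks peak strength on an unstated scale. The deposited FDR values (p-value scale) served only to find the stretches of bases listed by the authors. Footprint files carry 1 constant value, so their positions alone were used.

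The longer peak list of each library was used. A footprint was counted when it lay whole inside a peak, and crowded peaks hold at least 8. Genes are those of GENCODE M21, and sequences are of GRCm38. Overlaps and matching were computed with numpy 2.4.6 and pandas 2.3.3, intervals with scipy 1.17.1, and the functions were tested on simulated data. Intervals cover counting error over peaks only, and total reads are unknown. In matching, values were averaged over all matched peaks of a member and then over members. No test was run, with 1 group and 1 value per library.

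Named peaks were the 10 most crowded in both libraries, the 3 with most footprints per library, the 5 distal ones most crowded in both, the widest and narrowest, and the 5 per library with most footprints where the other library had 0. Named genes were up to 3 per list with the highest smaller count, and the 5 with most crowded promoter peaks, ties in alphabetical order. Members, lists and sequences searched were chosen with earlier results of these data known. Alternatives were the shorter list, footprints touching the peak, 6 or 10 footprints, wider and tighter matching, other promoter definitions, 50% reciprocal overlap and each library alone. Matching on GC content, at least 5 matched peaks, and leaving out peaks that overlap one another were added after seeing the data.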

Additional observations from a re-analysis of the deposited data

How the results depend on the processing

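The 8 results were recomputed under the alternatives, which gave 76 values. Of these, 51 moved by less than the spread between the libraries or, for counts, by less than 1.5 times. The 51 include values with either library left out. Except for counts, such values cannot move by more than that spread, so they are no sign of stability. The only result that changed direction was the promoter share of crowded minus matched peaks. It was 2.41 percentage points as reported and -0.69 with 10 or more footprints, where replicate 1 gave 2.6 and replicate 2 gave -3.97. It was 2.17 with the shorter list, 3.28 with footprints touching the peak, 4.83 with 6 or more footprints, 4.94 with wider and 4.80 with tighter matching, 5.81 by peak midpoint, 1.37 with a 1000 bp window and 1.18 with protein-coding starts. It was 0.227 with GC content matched, 5.45 with at least 5 matched peaks and 3.43 without peaks overlapping one another.

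The mean number of members per library was 5028 with 6 or more footprints and 502 with 10 or more, against 1539. Their median width was 440 bp with the shorter list and with touching footprints, 354 and 560 bp with 6 and 10 footprints, and 400 bp without overlapping peaks, against 452 bp. Their median signal was 2.38 with the shorter list and 2.5 without overlapping peaks, against 2.13. The difference in shared peaks was 7.44 percentage points at 50% reciprocal overlap, against 2.68. The difference in footprints of the other library was 1.49 with 6 and 3.28 with 10 or more, against 2.31, and the share of members crowded in both was 40.4% with 6 or more, against 27.5%. Leaving out either replicate gave 1238 to 1840 members, widths of 444 to 460 bp, signals of 1.97 to 2.29, promoter differences of 2.39 to 2.43, shared peak differences of 1.64 to 3.72, other-library footprint differences of 2.02 to 2.61, crowded in both of 22.3% to 32.6% and GC differences of 2.20 to 3.03. The cause of these shifts was not tested. No paired analysis was possible because the labels give 1 group. Reads per library are unknown, so no value could be adjusted for depth.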
